A study of Mus musculus with 4 samples.

Results

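Insl3, Agt and Lhcgr, 3 genes tied to the hormone output of the Leydig cell or to its control, were followed in embryonic testes from embryonic day 12.5 to 15.5 (E12.5 to E15.5). They were found through the RefSeq accession of each array probe, and each of the 3 had exactly 1 probe among 33390 gene names on the array. Each change is therefore the reading of a single probe, with no other probe of the gene to set beside it. The samples were whole gonads of wild-type male mouse embryos of the line MCH, with each stage from E13.5 on compared with the stage before it, and E15.5 also with E12.5. Every stage had 2 one-colour arrays, described in the series text as duplicates from separate biological material, which makes 8 arrays for the 4 stages. The labels do not give the number of embryos pooled for an array.

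Fetal Leydig cells lie between the testis cords and make the androgens and the peptide that masculinise the male fetus. Insl3 encodes insulin-like peptide 3, a secreted hormone of the relaxin family that acts through the receptor RXFP2 on the gubernaculum and so drives the transabdominal phase of testis descent. Lhcgr encodes the receptor for luteinising hormone and chorionic gonadotropin, which signals through the stimulatory G protein and cyclic AMP to the genes of steroid synthesis. In mice, male embryos that lack this receptor still virilise before birth. Agt encodes angiotensinogen, the secreted substrate that renin cuts to give angiotensin I, and is best known as a product of the liver.

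The genes lie on 2 chromosomes of the mouse assembly GRCm38.p6, with Insl3 at chr8:71689252-71690577, Agt at chr8:124556587-124569706 and Lhcgr at chr17:88716384-88792059. Their promoters, taken from RefSeq on that assembly, are shown because the genes were called higher together at E13.5. Each runs on the gene's own strand from 250 bases before a transcript start to 50 after it. For Insl3 and Agt that start is the end of the locus given above, whereas for Lhcgr it is position 88792014, 45 bases inside it, and the motif positions count from there. Motifs were searched on both strands, and capitals mark their matches. CAAGGTC is the binding core of the orphan nuclear receptor NR5A1, and AGGTCA is a nuclear receptor half-site. The letters GGGCGG form a binding box for factors of the SP family, and TATAA is the core of the TATA box.
Insl3 promoter, chr8:71689002-71689301, plus strand: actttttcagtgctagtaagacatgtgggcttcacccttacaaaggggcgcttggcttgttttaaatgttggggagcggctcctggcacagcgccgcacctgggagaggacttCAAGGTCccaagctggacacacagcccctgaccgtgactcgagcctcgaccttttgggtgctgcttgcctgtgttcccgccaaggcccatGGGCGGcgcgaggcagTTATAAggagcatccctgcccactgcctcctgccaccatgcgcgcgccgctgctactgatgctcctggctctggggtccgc
Agt promoter, chr8:124569657-124569956, minus strand: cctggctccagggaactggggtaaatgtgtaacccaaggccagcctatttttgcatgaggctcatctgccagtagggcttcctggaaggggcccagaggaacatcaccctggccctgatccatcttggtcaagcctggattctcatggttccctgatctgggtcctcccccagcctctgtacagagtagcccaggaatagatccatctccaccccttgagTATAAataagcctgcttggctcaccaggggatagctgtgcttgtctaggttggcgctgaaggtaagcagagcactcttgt
Lhcgr promoter, chr17:88791965-88792264, minus strand: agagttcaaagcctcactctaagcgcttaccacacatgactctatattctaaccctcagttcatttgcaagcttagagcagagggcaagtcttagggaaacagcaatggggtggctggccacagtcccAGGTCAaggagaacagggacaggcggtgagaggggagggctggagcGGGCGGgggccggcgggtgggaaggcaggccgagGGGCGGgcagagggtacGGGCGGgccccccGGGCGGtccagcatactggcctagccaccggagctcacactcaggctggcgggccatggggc
The Insl3 promoter held CAAGGTC at bases -137 to -131 from the start, GGGCGG at -47 to -42 and TATAA at -30 to -26. The TATAA of Insl3 overlaps a match on the opposite strand, read as TTATA at -31 to -27. The Agt promoter held TATAA alone, also at -30 to -26. The Lhcgr promoter held AGGTCA at -122 to -117, GGGCGG at 4 places between -76 and -7, and no TATAA. Among all 32851 promoters of the same length, 3.96% held CAAGGTC, 16.3% AGGTCA, 24.9% TATAA and 35.7% GGGCGG. Another motif, TGACG (a cyclic AMP response half-site), stood in none of the 3 windows and in 20.8% of all promoters. The GC content was 61.3% for Insl3, 54.7% for Agt and 64.0% for Lhcgr, against a median of 52.7% over all promoters. These matches describe the sequence only.

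Levels are log2 of the scanner's background-subtracted signal minus the 75th percentile of that signal on the same array, so a level of 0 equals that percentile. Levels of different probes are not comparable, since each probe has its own brightness. The 8 arrays had 60.3% to 69.8% of probes well above background, and the Y-linked genes Ddx3y, Eif2s3y, Kdm5d and Uty were above background on all 8 arrays whereas Xist was on 0. The arrays were spread over 3 slides. On slide 1 were the first arrays of both early stages, E12.5 and E13.5, on slide 2 their second arrays, and on slide 3 everything from E14.5 and E15.5. Slides 1 and 2 were read with version 9.1.3.1 of the extraction software and slide 3 with version 9.5.3.1. E13.5 can thus be compared with E12.5, and E15.5 with E14.5, within slides. Slide, software version and stage cannot be told apart for E14.5 against E13.5 or for E15.5 against E12.5. In whole gonads, more cells of a type and more RNA per cell cannot be told apart either.

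Insl3, the peptide hormone of the set, rose 6.14-fold at E13.5 relative to E12.5, and its later differences stayed within the spread between arrays. The processed signal of its probe was 9228 and 5030 on the E12.5 arrays, 41130 and 47476 at E13.5, 57070 and 78447 at E14.5, and 102447 and 62151 at E15.5. Scaled to each array, its levels were 3.13 and 2.65 at E12.5, 5.29 and 5.73 at E13.5, 5.23 and 5.73 at E14.5, and 5.84 and 5.39 at E15.5. Both E12.5 arrays lay below the other 6, which overlapped from stage to stage. Mean levels were 2.89 ± 0.34, 5.51 ± 0.31, 5.48 ± 0.35 and 5.62 ± 0.32 in order of stage (SD, n = 2 arrays each).

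At E13.5 against E12.5 the Insl3 difference was log2 2.62 ± 0.30 (limma's SE, 95% interval 1.89 to 3.35), with a Benjamini-Hochberg adjusted p of 0.00903 over all genes. Within slides the difference was 2.15 on slide 1 and 3.08 on slide 2. Of 21986 genes tested, 0.86% changed by as much in either direction. The later steps were -0.03 (interval -0.76 to 0.70, adjusted p = 0.951) at E14.5 against E13.5 and 0.14 (interval -0.59 to 0.87, adjusted p = 1) at E15.5 against E14.5. The intervals leave room for a further change of up to 0.70 and 0.87 upwards in log2 at these steps. On slide 3, the 4 pairings of an E15.5 with an E14.5 array gave Insl3 differences of 0.62, 0.12, 0.16 and -0.34.

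The E13.5 call of Insl3 did not hold when the slide 2 array of E12.5 was omitted (2.37, adjusted p = 0.0513) or that of E13.5 (2.40, adjusted p = 0.0663), with the 4 arrays of the comparison alone (2.62, adjusted p = 0.0593) and with a model-based (normexp) background correction (2.36, adjusted p = 0.0976). The scanner read the Insl3 spot in a low-gain scan on the 6 arrays from E13.5 on and in the normal scan at E12.5, and the part of that switch in the difference was not tested.

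**Figure D1:**
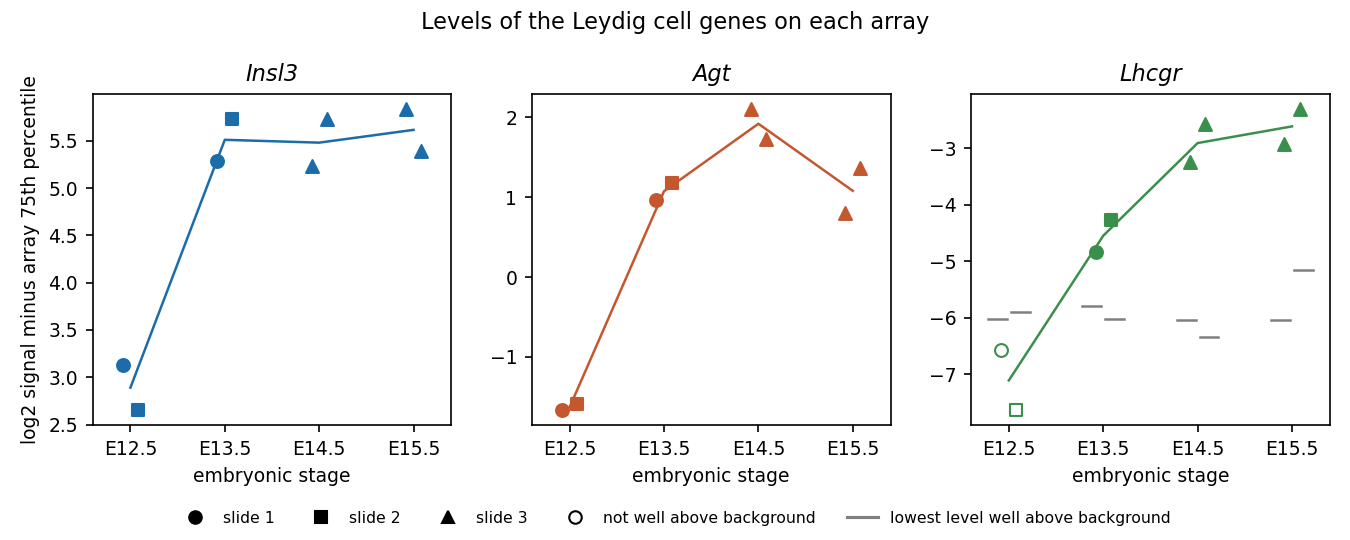
Level of each gene on each array (log2 signal minus the array's 75th percentile, y axis) at the 4 stages (x axis), with 2 arrays per stage. Marker shapes give the slide, lines join the stage means, open markers were not well above background, and grey bars beside Lhcgr give the lowest level of any probe well above background on that array. Insl3 and Agt step up at E13.5, and both Lhcgr points at E12.5 lie under the grey bars.

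Agt, the angiotensin precursor gene, rose 6.53-fold at E13.5. Its levels at E14.5 lay above those of both neighbouring stages, but neither step was called. Its signal was 331 and 266 on the E12.5 arrays, 2064 and 2033 at E13.5, 6577 and 4907 at E14.5, and 3106 and 3794 at E15.5. As levels these were -1.67 and -1.59, then 0.97 and 1.18, then 2.11 and 1.73, then 0.80 and 1.36. Arrays of E13.5 and E15.5 overlapped, and E12.5 and E14.5 each stood apart from every other stage. Mean levels were -1.63 ± 0.05, 1.08 ± 0.15, 1.92 ± 0.27 and 1.08 ± 0.39 (SD, n = 2 arrays each).

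The Agt difference at E13.5 against E12.5 was log2 2.71 ± 0.25 (interval 2.10 to 3.31, adjusted p = 0.00415), with 2.64 on slide 1 and 2.78 on slide 2. It kept its call without any 1 array, between 2.60 and 2.81. It did not keep it with the normexp background (2.37, adjusted p = 0.0663). At E14.5 against E13.5 Agt differed by 0.84 ± 0.25 (interval 0.24 to 1.44), a 1.79-fold difference with adjusted p = 0.0753. That step crosses slides, and it passed the threshold with quantile scaling (0.88, adjusted p = 0.0469) and with the percentile taken over probes detected on all arrays (0.89, adjusted p = 0.0472). At E15.5 against E14.5, within slide 3, Agt differed by -0.84 ± 0.25 (interval -1.44 to -0.24, adjusted p = 0.287). The 4 pairings of an E15.5 with an E14.5 array gave -1.31, -0.93, -0.75 and -0.37, but they reuse 2 arrays per stage and are not independent. Stages did not overlap for 36.4% of all genes at this step and for 60% at E14.5 against E13.5.

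Lhcgr, the gonadotropin receptor gene, could not be told from background at E12.5 and was measured on every later array. Its signal was 11 and 4.02 on the E12.5 arrays, 37 and 46.4 at E13.5, 160 and 250 at E14.5, and 235 and 300 at E15.5. The corresponding levels were -6.58 and -7.64, then -4.83 and -4.27, then -3.25 and -2.57, then -2.93 and -2.30. The lowest level of any probe well above background was -6.03 and -5.90 on the 2 arrays of E12.5. Both Lhcgr values there lay below it and are not measured levels. This floor is not strict, since the probe of Rxfp2 was not well above background at -5.73 and -5.79 on the same arrays. From E13.5 on, the levels of E13.5 lay below all others, and those of E14.5 and E15.5 overlapped.

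With that floor set at E12.5, Lhcgr was at least 2.67-fold higher at E13.5 (fitted log2 difference 2.56 ± 0.45, adjusted p = 0.0328). The bound is approximate, since a probe not well above background can lie above the floor. Lhcgr passed the filter on dim probes only through stages after E12.5, so its tests against E12.5 are not independent of the filter. Before background subtraction the Lhcgr spot read 102 and 102 at E13.5, over a local background of 57.5 and 61, and 78 and 64 at E12.5, over 56 and 59.5. The within-slide differences were 1.75 and 3.37, and each rests on an E12.5 reading below the background threshold. The bound holds for the scanner's background subtraction. An alternative added after seeing the data used normexp after local backgrounds over 2 times the array median were replaced. The difference was then 0.47 (adjusted p = 0.447), below that bound and not called. Normexp was run with an offset of 50, above the Lhcgr signals of E12.5 and E13.5. Such an offset shrinks log2 differences of dim readings, and its part in this value was not tested. The E13.5 call of Lhcgr survived leaving out E12.5 array 1 and none of the other 7 arrays. With E12.5 array 2 omitted the difference was 2.03 (adjusted p = 0.13), with E13.5 array 1 omitted 2.84 (adjusted p = 0.0871) and with E13.5 array 2 omitted 2.28 (adjusted p = 0.175). Omitting either E14.5 array gave 2.56 (adjusted p = 0.0513), and omitting either E15.5 array gave 2.56 (adjusted p = 0.0599). It was also lost with no filter on dim probes (2.56, adjusted p = 0.0721), with the 4 compared arrays alone (2.56, adjusted p = 0.117) and with the normexp background (1.55, adjusted p = 0.499).

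At E14.5 against E13.5 Lhcgr differed by 1.64 ± 0.45 (interval 0.57 to 2.71), a 3.12-fold difference with adjusted p = 0.0602. Without either E12.5 array the same difference passed the threshold (adjusted p = 0.048), and with the normexp background it turned to -0.44. Slide and stage cannot be told apart at this step. At E15.5 against E14.5 the difference was 0.29 (interval -0.78 to 1.37, adjusted p = 1), and the pairings on slide 3 gave 0.32, -0.36, 0.95 and 0.26.

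**Figure D2:**
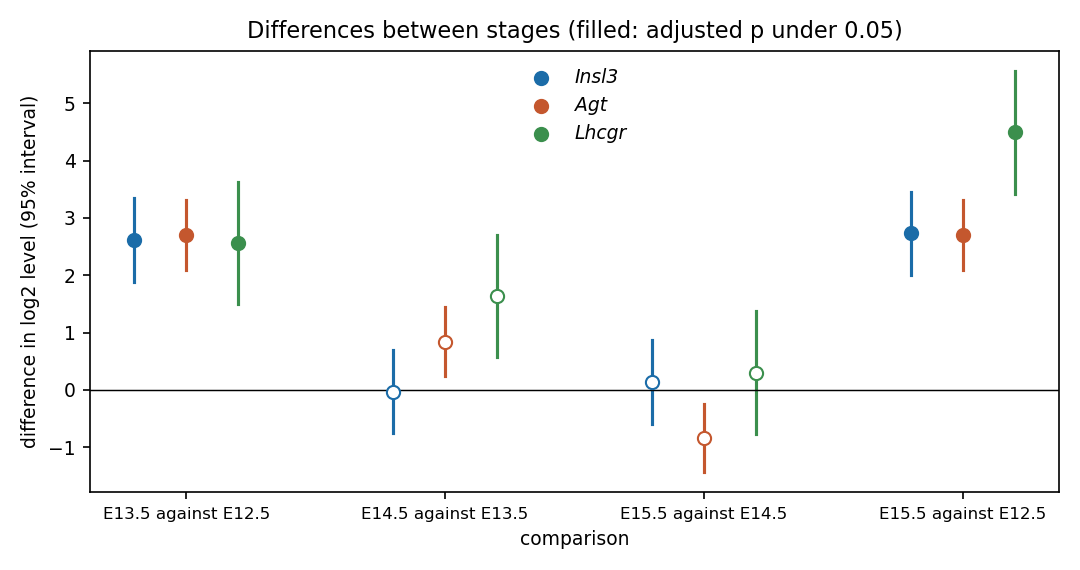
Log2 difference of each gene (y axis) in the 4 comparisons of stages (x axis), with the 95% interval of limma as bars and filled markers for an adjusted p under 0.05. All 3 genes are filled at E13.5 against E12.5 and at E15.5 against E12.5, and open in the steps between. The Lhcgr markers that involve E12.5 are fitted values, not bounds, and their tests are not independent of the filter on dim probes.

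At E13.5 against E12.5, 3 of the 3 genes were called higher, where 2.68% of all genes tested were called higher, 1.3% lower and 3.98% in either direction. Lhcgr passed the filter on dim probes only through later stages. Its calls against E12.5, here and over the whole span, are therefore not independent of the filter. Arrays of the 3 genes did not overlap either, but the same held for 51.3% of all genes, and 17.1% had an unadjusted p under 0.05. At E14.5 against E13.5, limma called 0 of the 3 genes, against 6.44% of all genes called higher, 6.04% lower and 12.5% in either direction. There, 2 of the 3 (Agt and Lhcgr) had an unadjusted p under 0.05 and stages that did not overlap, as did 31.9% and 60% of all genes by each measure alone. At E15.5 against E14.5, limma again called 0 of 3, against 0.559% of all genes higher, 0.0955% lower and 0.655% in either direction, and 1 gene (Agt) had an unadjusted p under 0.05 and stages that did not overlap, against 9.52% and 36.4% of all genes. Over the whole span, E15.5 against E12.5, 3 of the 3 genes were called higher, against 17.6% of all genes higher, 17.4% lower and 35% in either direction. For all genes, 46.6% had an unadjusted p under 0.05 over the span and 74% did not overlap. Insl3 was then 6.61-fold higher (log2 2.73, interval 2.0 to 3.45, adjusted p = 0.00131) and Agt 6.53-fold higher (log2 2.71, interval 2.10 to 3.31, adjusted p = 0.000672). For Lhcgr the approximate bound was at least 10.2-fold higher in E15.5 gonads (fitted log2 4.50, adjusted p = 0.000848), over a floor that is not strict. Its call was lost with the normexp background (1.32, adjusted p = 0.343). The median change of all genes was between -0.07 and 0.01 in the 4 comparisons.

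Of the relaxin family and its receptors, 6 of 9 genes passed the filter on dim probes. Only Insl3 was called at E13.5 against E12.5, where 3.98% of all genes were called. The receptor gene Rxfp2, through which INSL3 acts, was not well above background on the 4 arrays of E12.5 and E13.5, at levels of -5.73, -5.79, -6.38 and -6.66. It was above background on both E14.5 arrays (-4.94 and -5.04) and on E15.5 array 1 (-5.05), but not on E15.5 array 2 (-4.89). Rxfp2 passed the filter only through E14.5, so its test between E14.5 and E13.5 is not independent of the filter and is not given. Insl6, a relaxin family gene known from male germ cells, was at 0.49 and 0.39 at E15.5, against -0.84 and -0.63 at E12.5, a rise of log2 1.18 (adjusted p = 0.00552). The median of the 6 genes was -0.20 at E13.5 against E12.5 and 0.74 over the whole span, against medians of -0.06 and -0.07 for all genes. Both list medians include Rxfp2, which was not well above background at E12.5 or E13.5.

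Of 6 genes for gonadotropins and their receptors, 4 passed the filter. Fshr, the follicle-stimulating hormone receptor of Sertoli cells, was at -5.31 on E12.5 array 1, below background on E12.5 array 2, at -4.49 and -4.27 at E13.5, at -4.24 and -3.86 at E14.5, and at -3.24 and -3.42 at E15.5. It differed by log2 1.28 at E13.5 against E12.5 (adjusted p = 0.0647) and by 2.33 over the whole span (adjusted p = 0.00176). Fshr passed the filter on dim probes only through stages after E12.5, so neither test is independent of the filter. The gene for the beta subunit of luteinising hormone, Lhb, was above background on all 8 arrays and differed by -0.73 over the span (adjusted p = 0.128). Tshr and Cga, the thyrotropin receptor and the common subunit of the gonadotropins, were above background on 1 and 3 arrays and were not tested.

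The list of signalling from the receptor through cyclic AMP had 17 of 19 genes tested. At E13.5 against E12.5, 3 were called higher and 0 lower, against 2.68% and 1.3% of all genes. The 3 were Star, the cholesterol carrier of mitochondria (1.76, adjusted p = 0.0111), Prkar2b, a regulatory subunit of protein kinase A (1.19, adjusted p = 0.0442), and Pde8b, a cyclic AMP phosphodiesterase (1.07, adjusted p = 0.0377). Pde8b went on rising at E14.5 against E13.5 (1.76, adjusted p = 0.00799), with levels of -2.48 and -2.58 at E14.5, against -4.16 and -4.43 at E13.5. At that step Creb1 (-1.05, adjusted p = 0.0221; other probes 0.56 and 0.24) and Adcy9, an adenylyl cyclase gene (-1.07, adjusted p = 0.0479), were called lower. Over the whole span 4 of the 17 were called higher and 1 lower, against 17.6% and 17.4% of all genes, with Pde8b at 3.25 (adjusted p = 0.000173), Star at 2.48 (adjusted p = 0.000544; other probe 3.6), Prkar2b at 1.72 (adjusted p = 0.00253) and Arrb2, a beta-arrestin, at 1.71 (adjusted p = 0.00484). The lower one was Creb1, which encodes a transcription factor activated by protein kinase A (-1.65, adjusted p = 0.00139), but its other probes gave 0.05 and -0.09. The list median was 0.10 at E13.5 and 0.22 over the span.

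Of the renin-angiotensin genes, 14 of 16 were tested. Agt and Ren1 were the 2 called at E13.5 against E12.5, where 3.98% of all genes were called. Ren1, the renin gene whose product cuts angiotensinogen, was at 3.14 and 3.08 at E13.5, against 1.78 and 1.60 at E12.5, a rise of log2 1.41 (adjusted p = 0.0108). Its other probe gave 1.48 there, but 1.25 at E14.5 against E13.5, where the chosen probe gave -0.07. The probe may also read the near-identical Ren2 of some strains, so the value is uncertain as to which gene it measures. Over the whole span 4 of the 14 were called higher and 0 lower, against 17.6% and 17.4% of all genes (35% in either direction). Beside Agt and Ren1 (1.79, adjusted p = 0.000771; other probe 3.11) they were Agtr2, an angiotensin II receptor gene (1.68, adjusted p = 0.0121), and Atp6ap2, the prorenin receptor gene (1.52, adjusted p = 0.00377). Agtr2 was at -0.34 and -0.40 at E15.5, against -2.13 and -1.98 at E12.5. The converting enzyme gene Ace differed by 0.14 (adjusted p = 0.868). The other angiotensin II receptor gene, Agtr1a, differed by 0.85 on its brighter probe (adjusted p = 0.0835) and by -0.14 on its other probe. The list median was 0.22 at E13.5 and 0.23 over the span.

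**Figure D3:**
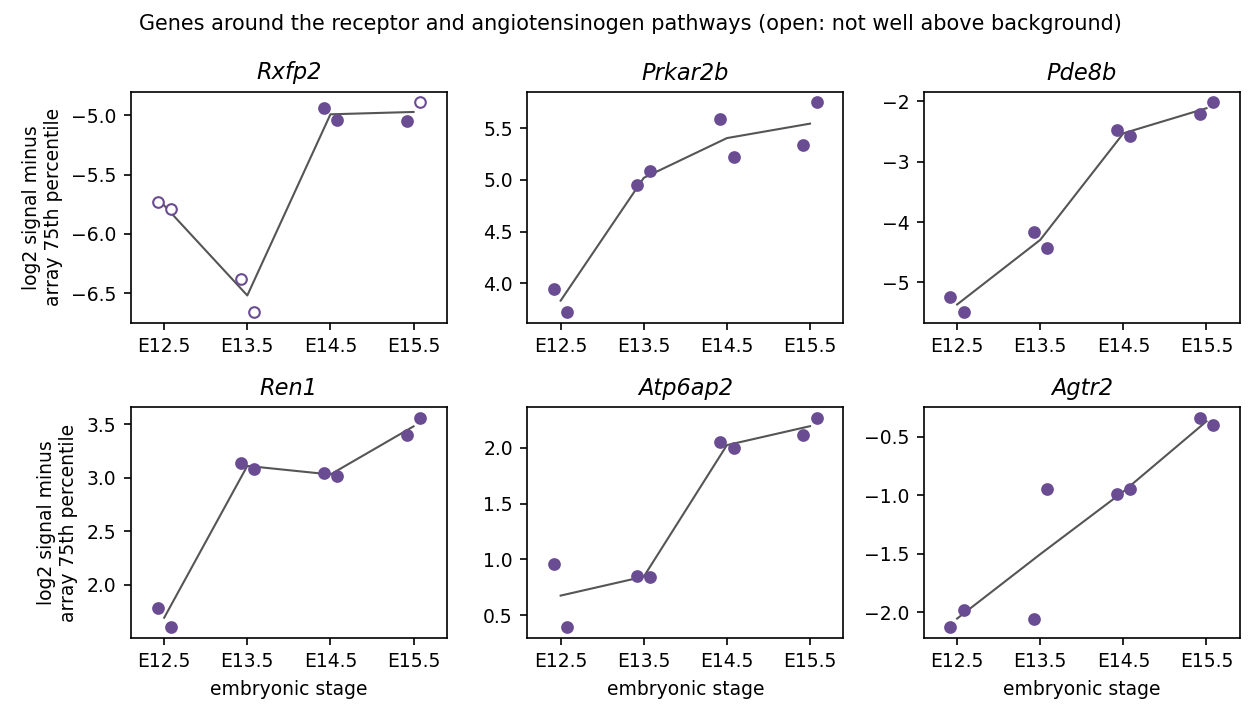
Levels (log2 signal minus the array's 75th percentile, y axis) of genes that act with Insl3, Lhcgr and Agt on each of the 8 arrays, by stage (x axis), with lines joining stage means and open markers for readings not well above background. Ren1 and Prkar2b step up at E13.5, whereas Rxfp2 reaches the background threshold only on arrays of E14.5 and E15.5.

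Genes of steroid synthesis, the output that the luteinising hormone receptor governs in the adult testis, moved at the same step as Insl3 and Agt. Of 13 genes tested, 8 were called higher and 0 lower at E13.5 against E12.5, against 2.68% and 1.3% of all genes. The list median was 1.19 against -0.06 for all genes. Cyp11a1, which makes pregnenolone from cholesterol, was at 3.54 and 3.97 at E13.5, against 0.91 and 0.97 at E12.5 (log2 2.81, adjusted p = 0.00348). Cyp17a1, which makes the androgen precursors, rose by 2.04 (adjusted p = 0.0125), Hsd17b1 by 1.94 (adjusted p = 0.0041) and Star by 1.76 (adjusted p = 0.0111). The list's other called genes were Hsd3b1 (1.41), Hsd3b6 (1.21), Fdx1 (1.10) and Hsd17b3 (0.84), and the readings of Hsd3b1 and Hsd3b6 are uncertain because these paralogs are near-identical. At E14.5 against E13.5 Hsd17b1 (1.84, adjusted p = 0.00626) and Hsd3b6 (1.21, adjusted p = 0.0281) were called higher and 0 lower, against 6.44% and 6.04% of all genes. limma called 0 of the 13 at E15.5 against E14.5, against 0.655% of all genes, and 2 had an unadjusted p under 0.05, against 9.52%. Over the span 9 of 13 were called higher and 0 lower, against 17.6% and 17.4% of all genes. They were led by Hsd17b1 (4.60, adjusted p = 6.89e-05), which stands also on the Sertoli cell list, and Cyp11a1 (3.51, adjusted p = 0.000266).

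**Figure D4:**
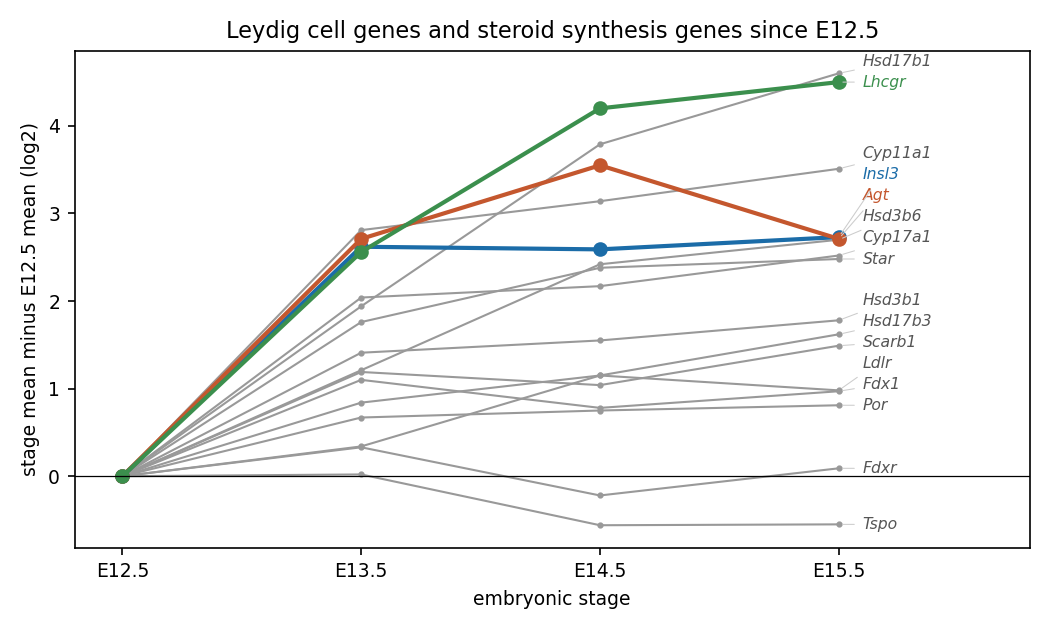
Stage mean minus the E12.5 mean (log2, y axis) at the 4 stages (x axis) for Insl3, Agt and Lhcgr in colour and the 13 genes of steroid synthesis in grey, each from 2 arrays per stage and shown without error. Cyp11a1 (2.81), Agt (2.71), Insl3 (2.62) and the fitted Lhcgr value (2.56), which is not a bound, lie close together at E13.5, and Tspo (0.02) lies near 0.

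Among 18 regulators of Leydig and steroid-making cells, limma called 0 at E13.5 against E12.5, against 3.98% of all genes. An unadjusted p under 0.05 was found for 2, both lower, against 17.1% of all genes. Nr5a1, the nuclear receptor gene whose binding core stands in the Insl3 promoter, differed by 0.18 at that step (adjusted p = 0.942) and by -0.40 over the whole span (adjusted p = 0.554). Over the span 2 were called higher and 4 lower, a share of the 18 close to the 35% of all genes called. Cebpb rose by 1.37 (adjusted p = 0.00628; other probe 0.97) and Pdgfra, a platelet-derived growth factor receptor gene of interstitial cells, by 0.85 (adjusted p = 0.0187; other probe 0.45). The lower ones were Nr5a2 (-3.95, adjusted p = 0.000151), a paralog of Nr5a1, the hedgehog receptor gene Ptch1 (-1.79, adjusted p = 0.0171), Mef2c (-1.51, adjusted p = 0.00189) and Gata6 (-0.91, adjusted p = 0.0124; other probes -0.45 and -3.27). The median of the 18 was -0.09 at E13.5 and -0.37 over the span.

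Marker lists of other cell types also moved between stages, several of them at E13.5 like the 3 genes, and their part in the results above was not tested. Summed over a list as signal relative to the array's 75th percentile, the 6 fetal Leydig markers, which hold Insl3 and Lhcgr themselves, ran from 23.7 to 30.8 at E12.5, 101 to 130 at E13.5, 111 to 140 at E14.5 and 134 to 159 at E15.5. Such sums are set mostly by the brightest probes of a list and can run against its other members. Of 8 liver markers 7 had a probe, and their sum ran from 1.80 to 2.36, 3.12 to 3.25, 6.06 to 7.35 and 12.4 to 12.9. The alpha-fetoprotein gene Afp rose by 3.05 at E13.5 against E12.5 (adjusted p = 0.0131). Ahsg differed by -0.57 there (adjusted p = 0.299) and rose by 1.09 over the span (adjusted p = 0.0154). Afp and Ahsg were above background on 8 arrays, Alb and Fgb on 4, Apoa2 on 3, Apoa1 on 2 and Ttr on 0. Of 7 adrenal cortex markers 6 had a probe, and their sum ran from 1.23 to 1.5, 2.67 to 2.75, 3.01 to 3.13 and 3.31 to 3.61. Their mean log2 level ran from -3.71 to -3.30, -3.13 to -2.87, -3.36 to -3.24 and -3.24 to -3.12. Mrap (1.64, adjusted p = 0.0168) and Akr1b7 (1.07, adjusted p = 0.0361) rose at E13.5, and Mc2r (0.01) and Hoxb9 (0.59) were not called. These 4 were above background on all 8 arrays, and the enzyme genes Cyp11b2 and Cyp21a1 on 0 and 2. The kidney and mesonephros sum, over 6 of 8 markers, ran from 2.56 to 2.86, 0.584 to 1.15, 0.147 to 0.180 and 0.200 to 0.223. Of these, Lhx1 and Cdh16 were above background on 8 arrays, Pax8 on 6, Pax2 on 4, Umod on 2 and Slc34a1 on 0. Over the span 4 were tested, and 1 (Pax8) was called higher and 2 (Lhx1 and Pax2) lower, against 17.6% and 17.4% of all genes. Pax8 was not well above background at E12.5, nor Pax2 at E15.5, so their calls are not independent of the filter. The erythroid sum, over 5 markers, ran from 132 to 149, 45.7 to 59.5, 12.3 to 17.9 and 1.09 to 1.97. The sum of 6 Sertoli cell markers ran from 143 to 151, 196 to 200, 171 to 183 and 156 to 157. Their mean log2 level ran from 2.68 to 2.87, 3.13 to 3.39, 3.45 to 3.64 and 3.51 to 3.71. Clu (1.51, adjusted p = 0.0483) and Hsd17b1 were called higher at E13.5, and the other 4 were not called. The sum of 5 germ cell markers ran from 22.9 to 24.5, 35.2 to 36.9, 35.9 to 42 and 37.5 to 43.1. Their mean log2 level instead ran from 0.66 to 0.83, 2.54 to 2.63, 2.05 to 2.09 and 1.09 to 1.31. Dnmt3l (5.10, adjusted p = 0.00155) and Nanos2 (3.12, adjusted p = 0.0134) were called higher at E13.5. Dazl (-0.96, adjusted p = 0.0473), Pou5f1 (-1.10, adjusted p = 0.0422) and Nanos2 (-2.57, adjusted p = 0.017) were called lower at E14.5 against E13.5, where 1 was called higher. Over the span 3 of the 5 were called lower and 1 higher, with a median of -1.07. The sum of 5 endothelial markers was 13.4 on both E12.5 arrays, then 7.04 to 7.74, 4.78 to 4.9 and 5.04 to 5.07. Cldn5 was called lower at E13.5 (-0.97, adjusted p = 0.0365), and the other 4 were not called. Over the span 2 (Kdr and Cldn5) were called lower, 0 higher and 3 were not called, with a median of -0.30. Of all genes, 35% were called over the span. Of 5 macrophage markers 3 had a probe, and their sum ran from 0.409 to 0.505, 0.375 to 0.511, 0.488 to 0.772 and 0.828 to 1.33.

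The genes most like each of the 3 over the 8 arrays were ranked by Pearson's r among 4890 named genes whose stage means spanned at least 1 in log2. For Insl3 they were Kcns1 (0.990), Ms4a10 (0.989), Cyp17a1 (0.988), Rasal1 (0.988) and Adh1 (0.986). For Agt they were Dnd1 (0.990), Ctag2 (0.989), Xlr5c (0.987), 4930503E14Rik (0.987) and Capsl (0.986), and Dnd1 is known as a gene of germ cells. For Lhcgr they were Sez6l2 (0.988), Fads2 (0.986), Cpn1 (0.985), Nlrp4c (0.985) and Nek5 (0.982). None of the 15 names stood on more than 1 list. Between the genes themselves r was 0.915 for Insl3 and Agt, 0.903 for Insl3 and Lhcgr, and 0.895 for Agt and Lhcgr. All these values share the same 8 arrays, slides and scaling, and they rest in large part on the E12.5 arrays lying below the rest, so they describe the pattern only. For Lhcgr the E12.5 readings are not measured levels. Kcns1, Ctag2 and Nek5 were above background on 6 arrays and Cpn1 on 7, so part of their readings are not measured levels either.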

How the data were processed

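Whole gonads of male mouse embryos were profiled on 8 one-colour Agilent arrays. Each deposited scanner file gives spot intensity on a linear scale, from which, per the file headers, Agilent Feature Extraction (9.1.3.1 for E12.5 and E13.5, 9.5.3.1 for E14.5 and E15.5) had subtracted background and spatial trends. The submitters' processing notes name version 9.5. The authors also deposited a table with 1 linear ratio per probe and stage, whose scale and centring are unknown and whose column medians were 1.14, 1, 0.898 and 0.859 in order of stage. Each ratio there was set against the scanner differences, with r of 0.997 to 0.999, so a higher ratio stands for a higher signal. The sign of a small difference can still differ. For Insl3 it was 0.02 there against -0.03 at E14.5 against E13.5, and -0.11 against 0.14 at E15.5 against E14.5.

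Control and outlier spots were left out, spots of a probe averaged, and log2 of the processed signal taken minus the array's 75th percentile over the 41174 probes. A probe was kept (28188) if 1 stage or more had it well above background in duplicate. RefSeq accessions matched to GRCm38.p6 named 22951 probes (55.7%), 0 probes had several symbols, and 18223 kept the design's identifier. With the brightest probe per gene, 21986 genes (13475 with a symbol) were tested with limma 3.58.1 in R 4.3.3 over all 8 arrays (4 residual plus 2.57 prior degrees of freedom), with Benjamini-Hochberg adjustment and a threshold of 0.05. With 2 arrays per stage, array number limits the precision, and p-values measure only the spread between duplicates. The fit was tested on simulated data.

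A gene below background on both arrays of its dimmer stage has an approximate lower bound of its fold difference. Its brighter mean is set over a dim mean that takes, per array, its own value or the lowest signal well above background, whichever is higher. That lowest signal is the lowest of any probe, and probes not well above background can exceed it. Saturated probes numbered 32 and 28 on slide 2 and 0 elsewhere, and none was Insl3, Agt or Lhcgr. The alternative normexp correction, with an offset of 50, used median spot signals. The 3 genes and the lists were chosen with earlier results of these data known. From each list, up to 5 called genes of largest change were named, with genes needed to read Insl3, Agt or Lhcgr, and 5 genes of most similar pattern each. Array numbers were checked as pairs: deviations from stage means correlated at 0.646 for E12.5 with E13.5, which share slides, and at -0.589 for E14.5 with E15.5.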

Additional observations from a re-analysis of the deposited data

How the results depend on the processing

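Of 221 recomputed and tested differences of Insl3, Agt and Lhcgr, 188 kept direction and side of the threshold. The cause of the others was not tested except where fewer arrays or genes entered. Part of the 221 could not change in direction. The mean over all probes is the same value for a gene with 1 probe, and omitting an array outside a comparison leaves its difference unchanged. The 188 is therefore not a measure of robustness. Limits are the 2 arrays per stage, the single probe per gene and the dim Lhcgr probe. With the normexp background at E13.5 against E12.5, Insl3 (2.36), Agt (2.37) and Lhcgr (1.55) lost their calls, as did Lhcgr over the span (1.32), whereas at E14.5 against E13.5 Insl3 turned to 0.29 and Lhcgr to -0.44. That setting called 2, 0, 0 and 1217 genes in the order E13.5 against E12.5, E14.5 against E13.5, E15.5 against E14.5 and E15.5 against E12.5. With backgrounds over 2 times the array median replaced, an alternative added after seeing the data, Lhcgr at E13.5 was 0.47 and not called, Agt at E14.5 was 0.85 and called, and 552 and 232 genes were called at E13.5 and at E15.5 against E14.5. Insl3 at E14.5 against E13.5 was 0.12 with quantile scaling, 0.01 with the percentile over detected probes and 0.02 in the authors' deposited table, and Insl3 at E15.5 against E14.5 was -0.0033 with median scaling and -0.11 in that table. Agt at E14.5 was called at 0.88 with quantile scaling and 0.89 with the detected-probe percentile. In the authors' deposited table, where the median of all genes was -0.18, 0.03, -0.23 and -0.39, the whole-span differences were 2.40 for Insl3, 2.39 for Agt and 4.02 for Lhcgr, and 2.80, 2.78 and 4.41 relative to that median. Median scaling moved the median of all genes to -0.13 at E15.5 against E14.5, and normexp moved it to 0.29 at E13.5 and -0.43 at E14.5. Without a filter, Lhcgr at E13.5 was 2.56 and lost its call, and 419 and 872 genes were called at E13.5 and E14.5. With probes above background on all arrays, 22 genes were called at E15.5 against E14.5, and Lhcgr gave no value. With the compared arrays alone, Insl3 (2.62) and Lhcgr (2.56) at E13.5 lost their calls, and 139, 779 and 0 genes were called in the 3 steps.

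With the slide of each pair as a fixed term (a replicate block by shared slide), no call of the 3 genes changed (E13.5 against E12.5: 2.62, 2.71 and 2.56), and 981 genes were called at E13.5 and 226 at E15.5 against E14.5. Pairing the E14.5 and E15.5 arrays crosswise, an added alternative, called 604 genes.

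Leaving out 1 array at a time gave, at E13.5 against E12.5, 2.37 to 2.86 for Insl3, 2.60 to 2.81 for Agt and 2.03 to 3.09 for Lhcgr. At E14.5 against E13.5 the ranges were -0.28 to 0.22 for Insl3, 0.65 to 1.03 for Agt and 1.30 to 1.98 for Lhcgr. At E15.5 against E14.5 they were -0.11 to 0.39, -1.12 to -0.56 and -0.05 to 0.64, and over the span 2.48 to 2.97, 2.43 to 2.99 and 3.96 to 5.03. Genes called ran from 188 to 695, 220 to 2091, 0 to 78 and 3492 to 7934.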

Other observations

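In the authors' deposited table, Insl3 stood at ratios of 0.235, 1.32, 1.34 and 1.24 in order of stage, Agt at 0.191, 1.15, 2.12 and 0.999, and Lhcgr at 0.169, 0.823, 2.65 and 2.74. These are the authors' values per stage, without separate arrays.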
